A study of Mus musculus with 6 samples.

Results

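The 10 genes described here, Atf3, Ifrd1, Ddit4, Sesn1, Sesn2, Tsc1, Tsc2, Mtor, Rptor and Tfeb, were chosen by symbol as regulators of paligenosis and of the kinase complex mTORC1. They are 10 of the 38720 rows of the deposited table, and all 10 passed the filter on low values, under which 17432 genes were tested. The study compared the neck region of the stomach corpus, cut from frozen sections by laser capture, in 3 wild-type libraries (CLDN18+/+) and 3 knockout libraries (CLDN18-/-). Cldn18 encodes claudin 18, which seals tight junctions between stomach epithelial cells, and every library came from the strain B6:129S5. For age, the labels of the samples say 7 weeks whereas the text on the series says 7 days. The sources used here do not give how the knockout allele was made, how many animals a library holds or whether each library stands for a separate animal. Without separate animals, the p-values measure only the spread between these libraries, which may be technical.

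Paligenosis is the program by which a mature secretory cell, such as the gastric chief cell, returns to the cell cycle after injury. In its first stage mTORC1 activity falls and lysosomes and autophagy take apart the secretory machinery, then metaplasia genes come on, and last mTORC1 activity returns and the cell divides. mTORC1 is built around the kinase Mtor and its scaffold Rptor; the Tsc1 and Tsc2 proteins hold it off, the sestrins and Ddit4 hold it off under stress, and Tfeb is a lysosomal transcription factor that it keeps out of the nucleus. These controls act largely on proteins, by phosphorylation and by position at the lysosome, and mRNA counts do not measure them.

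The neck libraries also carried RNA of other gland cells, and marker RNA of those cell types differed between the groups. Summed over 7 parietal cell markers, normalized counts were 437000 to 567000 in wild-type and 5190 to 13000 in the knockout, and 7 of 7 fell (limma, adjusted p under 0.05). The 5 chief cell markers summed to 1810000 to 3000000 and to 34000 to 67500, and 5 of 5 fell. Of 3 mucous neck cell markers 1 rose and 1 fell, with sums of 74400 to 96400 and 63900 to 152000. Endothelial markers fell in 5 of 5 cases (3740 to 5950 against 1470 to 2030). Of 7 macrophage and neutrophil markers 5 were tested and 3 rose (sums over the 7 of 1310 to 2040 against 2760 to 5640). S100a8 and S100a9 were below the filter and at 0 in some libraries. The 6 squamous forestomach markers summed to 404, 5760 and 2080 in wild-type replicates 1, 2 and 3 and to 554 to 656 in the knockout, so wild-type replicate 2 stood apart. Of the 5 tested, 2 fell (Krt5 and Krt14) and 1 rose: Ivl, a gene of the cornified envelope, was at 0, 0 and 1.94 in wild-type and at 282, 308 and 405 in the knockout. Sprr3 lay below the filter and was at 0 in some libraries. The mitochondrial genome took 3.28% to 4.28% of reads in wild-type and 1.25% to 1.56% in knockout libraries (exact permutation test, two-sided, p = 0.1, which is the lowest possible with 3 against 3). Libraries held 37673283 to 52842813 reads on genes, of which 38.6% to 45.4% fell on the single row Gm26924, and each of the 10 genes had 115 to 4544 reads in a library. Cldn18 itself stood at 24983 ± 4883 normalized counts in wild-type and fell to 15217 ± 1952 in knockout libraries (SD, n = 3 each; log2 difference -0.71, limma adjusted p = 0.0134), a call lost without knockout replicate 1 (adjusted p = 0.0882). Every library labelled knockout thus still held Cldn18 reads. The sources used here do not say which part of the gene the allele removes, so a count over the whole gene does not check the genotype labels, and knockout means the label throughout. The part of these markers in the differences described next was not tested.

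Among the 10 genes, Mtor, Sesn1, Tsc2, Tsc1 and Tfeb fell in the knockout, Rptor rose, and Atf3, Ifrd1, Ddit4 and Sesn2 were not called (limma on log2(normalized count + 1), adjusted p under 0.05 over all genes tested). Over all genes tested 44.7% were called, 21.5% as lower and 23.3% as higher, so 6 calls among 10 genes is not far from the background. The median log2 difference of the 10 was -0.45, against -0.02 over all genes tested. The values of the groups did not overlap for the same 6 genes, 5 of them lower and 1 higher, against 55.2% of all genes tested (27.1% lower and 28.1% higher). Mtor, Sesn1 and Tsc2 were called in each of 19 alternative analyses, Tsc1 in 15, Tfeb in 9 and Rptor in 8. In bulk samples like these, fewer cells of a type and less RNA per cell cannot be told apart.

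**Figure D1:**
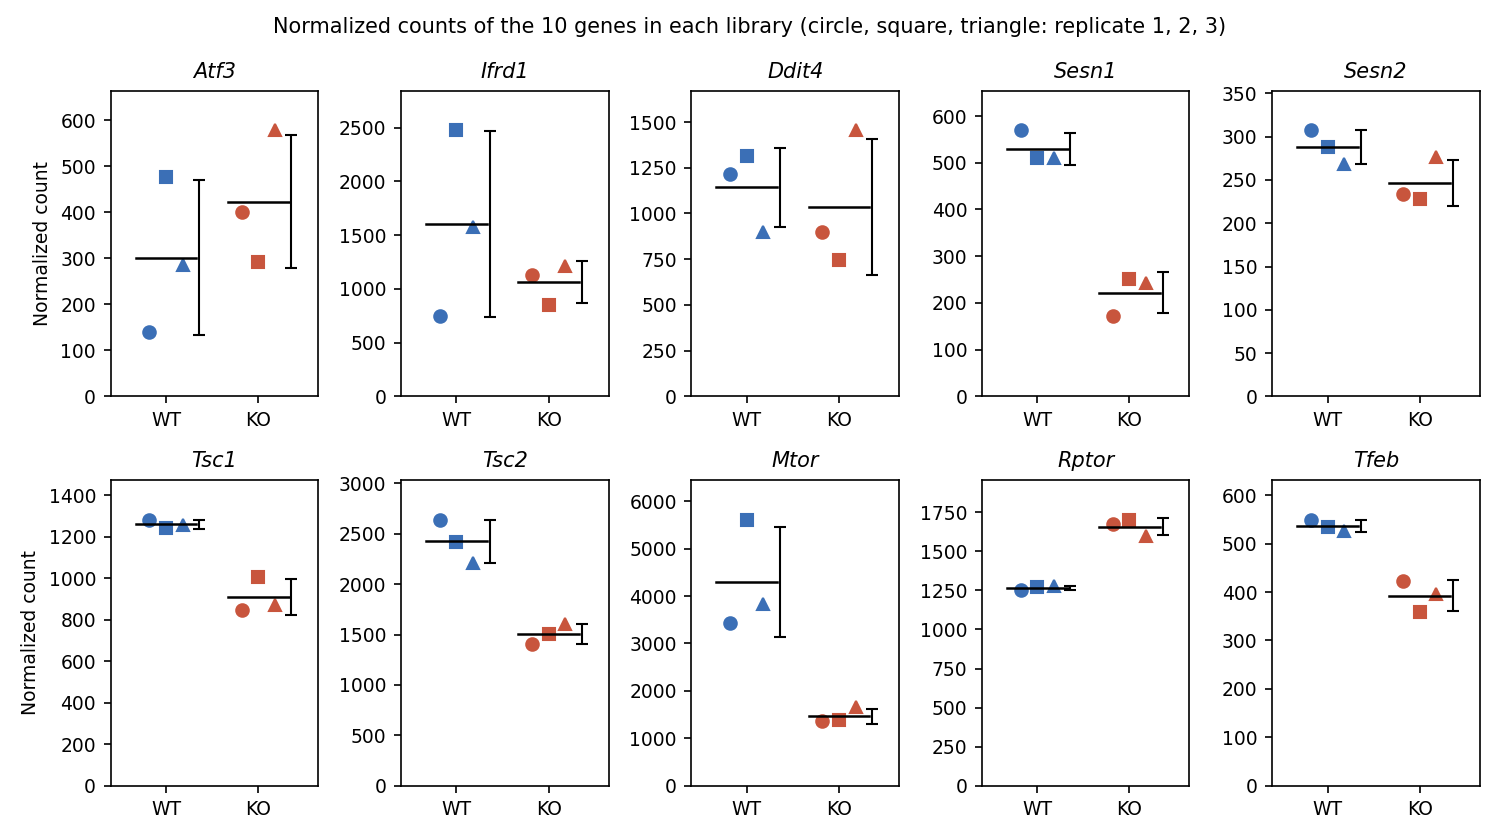
Normalized counts (vertical axes from 0) of the 10 genes in the 3 wild-type (WT, blue) and 3 Cldn18 knockout (KO, red) libraries, with the group mean as a line and the SD as a bar. For Mtor the 3 knockout libraries sit between 1355 and 1651 and the wild-type libraries between 3427 and 5611, while for Atf3, Ifrd1, Ddit4 and Sesn2 the groups overlap.

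Mtor, the kinase subunit shared by mTORC1 and mTORC2, had the largest difference of the 10. Wild-type replicates 1, 2 and 3 held 3427, 5611 and 3829 normalized counts, and the knockout libraries 1355, 1379 and 1651. All knockout libraries lay below all wild-type libraries, and the wild-type spread came mainly from replicate 2. The knockout mean was 34.1% of the wild-type mean, with a log2 difference of -1.53 ± 0.19 (SE; limma adjusted p = 0.000115). Without wild-type replicates 2 and 3, an alternative added once the data had been seen that leaves a single wild-type library assumed to vary like the knockout libraries, the log2 difference was -1.23 (limma adjusted p = 0.000691). In absolute size the log2 difference of Mtor exceeded that of 81.9% of all genes tested. The gene (ENSMUSG00000028991.15, protein coding, mm10 chromosome 4, 148448611 to 148557683, plus strand) holds Angptl7 on the opposite strand in an intron, with no shared exonic base; Angptl7 stood at 46.3 normalized counts in wild-type and 17.4 in the knockout.

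Rptor, the scaffold that brings substrates to mTORC1, was the only one of the 10 called higher. The wild-type libraries held 1251, 1271 and 1278 normalized counts, the knockout libraries 1675, 1703 and 1596, and each knockout value exceeded each wild-type value. The means differed by 1.31-fold (log2 difference 0.39 ± 0.12 SE; limma adjusted p = 0.0268). This call depended on the processing: it was lost without wild-type replicate 3 (adjusted p = 0.0514) and without knockout replicates 1, 2 and 3 in turn (adjusted p = 0.1, 0.0819 and 0.0606), with the replicate block (adjusted p = 0.0823), and in the authors' deposited table (adjusted p = 0.298). It was also lost with upper quartile scaling (limma adjusted p = 0.125), quantile normalization (0.113), no filter on low values (0.0685) and no mean trend (0.0583), always with a higher knockout value. Rptor spans chromosome 11, 119602905 to 119899576 on the plus strand (ENSMUSG00000025583.15), and shares 84 exonic bases with the antisense gene Rptoros, from which its reads cannot be told apart without strand information.

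The ratio of Mtor to Rptor shows the shift between the partners in each library, and no scaling factor of a library can change it. Per kb of exonic length it was 3.65, 5.88 and 3.99 in wild-type replicates 1, 2 and 3 and 1.08, 1.08 and 1.38 in the knockout. Per kb, the level of Mtor thus exceeded that of Rptor in each wild-type library and came close to it in the knockout libraries. Without division by length, Mtor was below Rptor in knockout replicates 1 (1355 and 1675 normalized counts) and 2 (1379 and 1703). In knockout replicate 3 it was slightly above (1651 and 1596). The lengths are unions over annotated isoforms, so these ratios need not be ratios of transcript numbers. Ratios were chosen after the values were known and are given with no test.

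**Figure D2:**
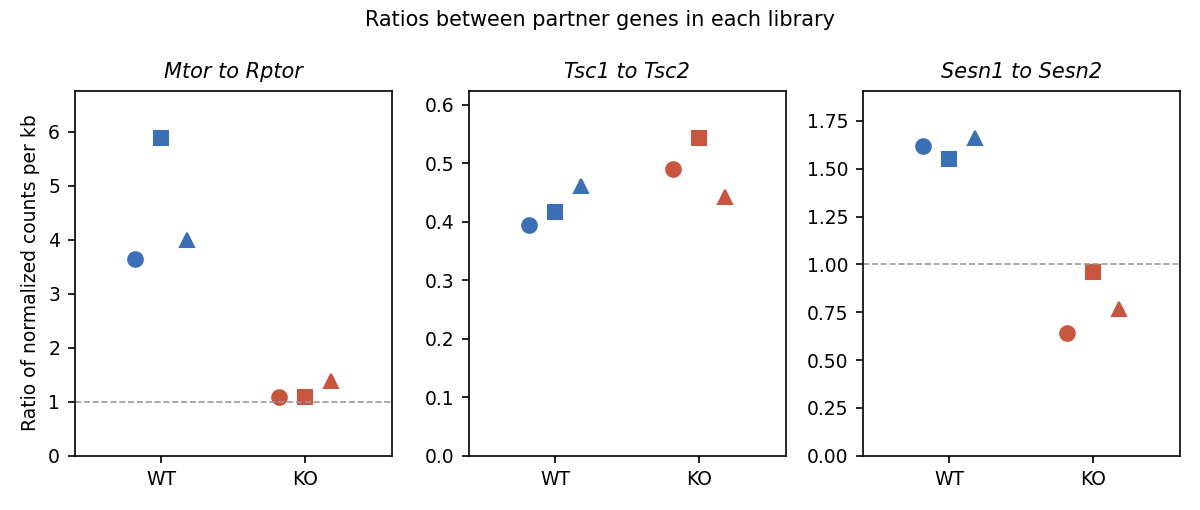
Ratios of normalized counts per kb of exonic length (vertical axes from 0) for Mtor to Rptor, Tsc1 to Tsc2 and Sesn1 to Sesn2 in the wild-type (WT) and knockout (KO) libraries; circle, square and triangle are replicates 1, 2 and 3, and the dashed line marks equal levels. The Mtor to Rptor ratio is 3.65 to 5.88 in wild-type and 1.08 to 1.38 in the knockout, and the Sesn1 to Sesn2 ratio crosses 1 between the groups.

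The sequences before the starts of Mtor and Rptor are shown because these partners of 1 complex moved in opposite directions. They are the 250 bases before the RefSeq start (GRCm38.p6, the assembly of mm10), 5′ to 3′ along the gene's strand, in lower case with matches to the motif ATTGG (the inverted CCAAT box, either strand) in capitals.
Mtor, chr4:148448332-148448581, plus strand: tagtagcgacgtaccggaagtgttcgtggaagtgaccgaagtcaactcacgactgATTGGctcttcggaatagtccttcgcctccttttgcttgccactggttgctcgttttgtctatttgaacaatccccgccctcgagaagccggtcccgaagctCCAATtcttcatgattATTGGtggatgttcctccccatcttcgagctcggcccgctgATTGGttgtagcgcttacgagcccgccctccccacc
Rptor, chr11:119602655-119602904, plus strand: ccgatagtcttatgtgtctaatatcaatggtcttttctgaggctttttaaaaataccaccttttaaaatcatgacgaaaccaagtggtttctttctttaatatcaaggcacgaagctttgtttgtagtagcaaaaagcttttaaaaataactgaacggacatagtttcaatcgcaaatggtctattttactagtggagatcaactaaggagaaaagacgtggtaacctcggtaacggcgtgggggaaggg
The Mtor window held 4 matches to ATTGG and the Rptor window none. At least 1 match was present in 33.8% of 32851 windows of that length, and at least 4 in 0.84%. The cut of 4 was taken from the Mtor window itself, so that share is no test. Matches were also present before Ddit4 and Sesn2 (2 each) and Ifrd1 and Sesn1 (1 in each window), and none before Tsc1, Tsc2, Tfeb and Atf3. The part of the motif in the differences was not tested. The Mtor window was 54.4% G or C and the Rptor window 37.6%. Neither held CACGTG (the E-box at the core of lysosomal CLEAR elements, in 6.02% of windows), TGACGTCA (the cAMP response element, 1.55%) or TGACTCA (the AP-1 site, 4.46%).

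Tsc1 and Tsc2, which together form the complex that keeps the mTORC1 activator Rheb inactive, both fell. Tsc2, the GTPase-activating subunit, stood at 2640, 2419 and 2214 in the wild-type libraries and at 1406, 1509 and 1604 in those of the knockout. The log2 difference came to -0.68 ± 0.13 (SE; limma adjusted p = 0.00197), and the groups were well apart. Tsc1, the stabilizing subunit, had wild-type values of 1282, 1241 and 1255 and knockout values of 847, 1008 and 873 (log2 difference -0.47 ± 0.14 SE; limma adjusted p = 0.0164). The call of Tsc1 was lost without knockout replicate 1 (adjusted p = 0.0829), without knockout replicate 3 (adjusted p = 0.0626) and in the authors' deposited table (adjusted p = 0.196). The ratio of Tsc1 to Tsc2 per kb was 0.395 to 0.461 in wild-type and 0.442 to 0.543 in the knockout, and these ranges overlap. Tsc2 (ENSMUSG00000002496.10, chromosome 17, 24595816 to 24632630, minus strand) shares 693 of its 9620 exonic bases with Pkd1 on the opposite strand. Pkd1 stood at 1498 normalized counts in wild-type and 1480 in the knockout.

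The sestrins are stress-induced proteins that restrain mTORC1 through the amino acid sensing complex GATOR, and Sesn2 also senses leucine. Sesn1, a target of p53, fell: wild-type values of 569, 510 and 511 compared with knockout values of 172, 250 and 243. The log2 difference came to -1.27 ± 0.20 (SE; limma adjusted p = 0.00059), with the knockout mean at 41.9% of the wild-type mean. Sesn2, a target of ATF4, had wild-type values of 307, 288 and 268 and knockout values of 234, 228 and 277, where knockout replicate 3 lay within the wild-type range. Sesn2 was not called (log2 difference -0.23, 95% confidence interval -0.65 to 0.20; limma adjusted p = 0.367). Of the summed Sesn1 and Sesn2 levels per kb, Sesn1 made up 61.8%, 60.7% and 62.5% in wild-type replicates 1, 2 and 3. In the knockout it made up 39.0%, 49.0% and 43.4%, so per kb the more abundant of the pair changed from Sesn1 to Sesn2. Without division by length, knockout replicate 2 held more Sesn1 than Sesn2 (250 and 228 normalized counts), and knockout replicates 1 and 3 held less. The third family member, Sesn3, had a log2 difference of -0.35 and was not called (limma adjusted p = 0.263).

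Sesn1 (ENSMUSG00000038332.13, chromosome 10, 41809935 to 41908424, plus strand) has 2 RefSeq starts. The 250 bases before the downstream one hold no annotated exon and are shown as the promoter of the shorter isoform of the sestrin that fell, with the single ATTGG match in capitals.
Sesn1, chr10:41887189-41887438, plus strand: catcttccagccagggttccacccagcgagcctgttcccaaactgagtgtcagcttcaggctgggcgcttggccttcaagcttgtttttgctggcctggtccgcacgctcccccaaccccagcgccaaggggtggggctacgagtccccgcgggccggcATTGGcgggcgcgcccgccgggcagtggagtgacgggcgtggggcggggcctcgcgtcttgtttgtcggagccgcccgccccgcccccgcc
This window was 71.2% G or C and held none of CACGTG, TGACGTCA and TGACTCA. Gene-level counts do not tell which of the starts the lower counts belong to.

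Atf3, Ifrd1 and Ddit4, the genes most closely tied to paligenosis in the stomach and pancreas, were not called. Atf3, a stress transcription factor that switches on lysosomal trafficking at the start of the program, had values of 141, 477 and 285 in wild-type replicates 1, 2 and 3 and 399, 291 and 578 in the knockout. Wild-type replicate 2 exceeded 2 of the 3 knockout libraries, and the log2 difference was 0.60 with a 95% confidence interval of -0.28 to 1.48 (limma adjusted p = 0.248). Without wild-type replicate 2 Atf3 was called higher (log2 difference 1.02, adjusted p = 0.0254), as it was against wild-type replicate 1 alone (1.52, adjusted p = 0.00906). Without wild-type replicate 1 its log2 difference was 0.14 (adjusted p = 0.737), and without knockout replicate 3 it was 0.35 (adjusted p = 0.577).

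Ifrd1, which is needed for the return of mTORC1 activity late in paligenosis, followed the same order of wild-type libraries. Its values were 748, 2473 and 1580 in wild-type replicates 1, 2 and 3 and 1133, 846 and 1212 in the knockout, so all knockout libraries lay inside the wild-type range. The log2 difference was -0.44 with a 95% confidence interval of -1.22 to 0.33 (limma adjusted p = 0.332). Without wild-type replicate 1 Ifrd1 was called lower (-0.91, adjusted p = 0.00577), without wild-type replicate 2 the difference was -0.05 (adjusted p = 0.902), without knockout replicate 2 it was -0.29 (adjusted p = 0.61), and against wild-type replicate 1 alone it was 0.49 (adjusted p = 0.113). Atf3 and Ifrd1 are thus 2 of the 10 genes in which wild-type replicate 2 exceeded replicate 1 by 3 times or more and replicate 3 exceeded it by 1.5 times or more, a pattern that 8.19% of all genes tested share. The sum of the squamous markers was also highest in wild-type replicate 2 (404, 5760 and 2080), and so were Krt5, Krt14 and Krt13. Lor was lowest there (31.8, 11.1 and 31.1) and Ivl was at 0, and the part of these markers was not tested.

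Ddit4, a stress-induced inhibitor that acts through the Tsc complex and limits mTORC1 early in paligenosis, had wild-type values of 1216, 1313 and 900 and knockout values of 899, 748 and 1454. Knockout replicate 3 held the highest value of all 6 libraries and knockout replicate 2 the lowest. Ddit4 was not called (log2 difference -0.18, 95% confidence interval -0.72 to 0.35; limma adjusted p = 0.568). Left-out libraries moved the difference but gave no call: it was -0.08 without wild-type replicate 2, -0.35 without wild-type replicate 3, -0.11 without knockout replicate 1, 0.02 without knockout replicate 2 and -0.46 without knockout replicate 3 (lowest adjusted p = 0.116).

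The sequence before the Atf3 RefSeq start was chosen after the motif search. It is shown because it holds sites of the kind bound by the stress factors whose targets are described further on. Of its bases 7 lie in an annotated Atf3 exon, and the annotated gene reaches 191218039, upstream of this window. Capitals mark TTGCATCA, the C/EBP-ATF response element read by ATF4, and TTACGTCA, an ATF/CRE variant.
Atf3, chr1:191183334-191183583, minus strand: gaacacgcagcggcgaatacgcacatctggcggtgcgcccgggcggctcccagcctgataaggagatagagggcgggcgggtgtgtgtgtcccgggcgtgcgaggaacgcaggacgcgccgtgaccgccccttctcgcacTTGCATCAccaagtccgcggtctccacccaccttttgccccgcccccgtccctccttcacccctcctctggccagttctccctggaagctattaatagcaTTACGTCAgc
TTGCATCA was present in 0.791% of 32851 windows and TTACGTCA in 0.447%, on either strand. A match is a run of letters and not a measured binding site.

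Tfeb, a transcription factor for lysosome and autophagy genes that mTORC1 phosphorylates and holds in the cytoplasm, fell by a small amount. Wild-type libraries held 550, 535 and 525 normalized counts and knockout libraries 422, 360 and 396, groups that do not overlap. The log2 difference was -0.45 ± 0.16 (SE; limma adjusted p = 0.0393), with the knockout mean at 73.2% of the wild-type mean. The call was lost when any 1 library was left out: adjusted p = 0.0599, 0.0659 and 0.0725 without wild-type replicates 1, 2 and 3, and 0.0751, 0.123 and 0.0923 without knockout replicates 1, 2 and 3. It was also lost with the replicate block (adjusted p = 0.0916), with no filter on low values (adjusted p = 0.0762) and in the authors' deposited table (adjusted p = 0.279).

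**Figure D3:**
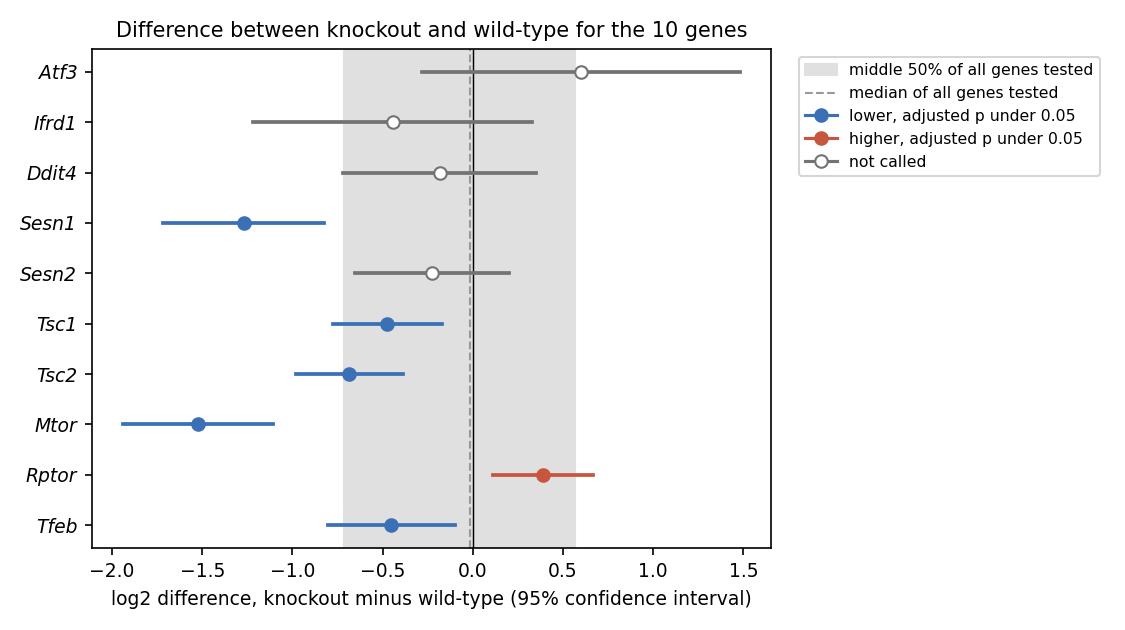
Log2 difference, knockout minus wild-type, of each of the 10 genes (point) with its 95% confidence interval (line); the grey band holds the middle 50% of all genes tested and the dashed line is their median. Mtor and Sesn1 lie outside the band at -1.53 and -1.27, and the intervals of Atf3, Ifrd1, Ddit4 and Sesn2 cross 0.

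Levels between genes can be set side by side only per length. In wild-type the order of mean normalized counts per kb of exonic length was Ddit4 (651 ± 123), Mtor (424 ± 115), Ifrd1 (273 ± 147), Tsc2 (252 ± 22), Atf3 (140 ± 78), Sesn1 (133 ± 8.5), Tsc1 (106 ± 1.7), Tfeb (94.6 ± 2.2), Rptor (94.0 ± 1.0) and Sesn2 (82.8 ± 5.6; SD, n = 3 each). The libraries of neighbours in this order overlapped for Ddit4 and Mtor, Mtor and Ifrd1, Ifrd1 and Tsc2, Atf3 and Sesn1, and Tfeb and Rptor, and not for the others. In the knockout Ddit4 again had the highest mean (589 ± 212), followed by Atf3 (196 ± 67), Ifrd1 (182 ± 33), Tsc2 (157 ± 10), Mtor (145 ± 16) and Rptor (123 ± 4.1), and then by Tsc1 (76.8 ± 7.3), Sesn2 (70.8 ± 7.7), Tfeb (69.3 ± 5.5) and Sesn1 (55.7 ± 11). Here the libraries overlapped between all neighbours from Atf3 to Mtor and from Tsc1 to Tfeb, and Sesn1 had the lowest mean. Exonic lengths are unions over annotated isoforms, so a gene whose long isoforms are unused has its level understated.

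The genes with profiles most like Mtor over the 6 libraries, by root mean square difference of log2 values centred on the wild-type mean, were Nr1d2 (0.0947), which encodes the circadian repressor REV-ERB beta, Epb4.1l1 (0.102) and Hdgfrp3 (0.119). For Sesn1 they were Slc25a12 (0.0962), a mitochondrial aspartate and glutamate carrier gene, Mr1 (0.106), which presents vitamin metabolites to T cells, and Pdzd2 (0.109). Nr1d2 had wild-type values of 1170, 1740 and 1314 and knockout values of 426, 463 and 481, and so shares with Mtor the higher value of wild-type replicate 2. Over all genes the difference varied with exonic length. Genes with over 10 kb of exonic sequence, as Mtor, Rptor and Tsc1 have, had a median log2 difference of -0.05, with 21.4% lower and 22.5% higher. Genes under 2.5 kb, as Atf3 and Ddit4 are, had a median of -0.22, with 29.8% lower and 18.9% higher, and those of 2.5 to 5 kb, as Sesn1 and Sesn2 are, had a median of 0.08, with 17.2% lower and 25.8% higher. The part of length in the differences of the 10 genes was not tested.

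Beyond the 10 genes, 110 further genes of the pathway were listed, of which 108 were tested, 39 fell, 19 rose and 50 were not called. These are 36.1% lower and 17.6% higher, beside the 21.5% and 23.3% of all genes tested. Without wild-type replicates 2 and 3 the counts were 34 lower and 15 higher.

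**Figure D4:**
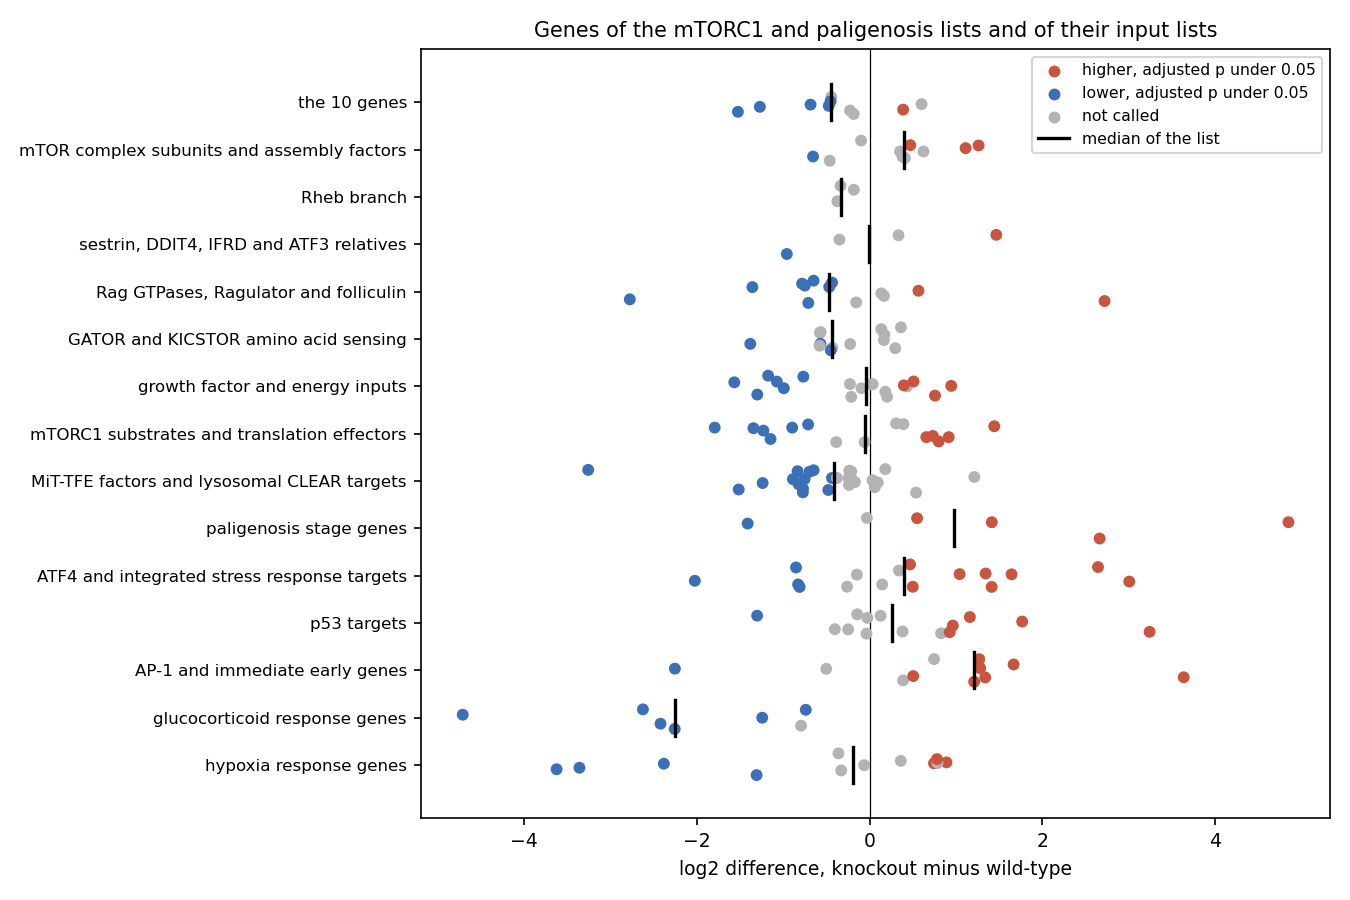
Log2 difference, knockout minus wild-type, of each tested gene (point) in the 10 genes, the 9 pathway lists and the 5 lists of genes that report on inputs to the pathway; a black bar marks each list's median. The MiT-TFE and lysosomal list has 13 lower genes and none higher, and the glucocorticoid list has a median of -2.26.

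Other subunits and assembly factors of the mTOR complexes went both ways, with 3 of 10 higher and 1 lower (median log2 difference 0.39). Deptor, an inhibitory subunit of both complexes, fell from 5687 ± 1014 to 3581 ± 269 (SD, n = 3; log2 difference -0.66). Telo2, which helps fold and assemble Mtor with its partners, rose from 260 ± 47 to 558 ± 54, and Prr5, an mTORC2 subunit, rose by 1.26 on the log2 scale. Akt1s1, which encodes the mTORC1 inhibitor PRAS40, was higher (0.47, limma adjusted p = 0.0332), a call lost without wild-type replicates 2 and 3 in turn (adjusted p = 0.0718 and 0.116) and without knockout replicates 1 and 3 in turn (adjusted p = 0.134 and 0.0884). It was also lost with upper quartile scaling (limma adjusted p = 0.0802), quantile normalization (0.0797) and no mean trend (0.0933), in the authors' deposited table (0.156), and against wild-type replicate 1 alone (log2 difference 0.17, 0.437). Mapkap1 joined Deptor when wild-type replicate 1 was left out, which gave 2 lower genes. The count of lower genes was also 2 with upper quartile scaling, quantile normalization and DESeq2. Of the 3 Rheb branch genes (Rheb, Rhebl1 and Tbc1d7) limma called 0, with 0 at an unadjusted p under 0.05, and edgeR and DESeq2 also called 0. Without wild-type replicate 1 the count was 1 lower (Rheb), and against wild-type replicate 1 alone it was 1 lower (Tbc1d7).

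Among 4 relatives of the 10 genes, Ifrd2, a paralog of Ifrd1, rose from 1147 ± 124 to 3167 ± 276 (SD, n = 3; log2 difference 1.47 ± 0.14 SE; limma adjusted p = 2.19e-05), with no overlap between groups. Jdp2, which encodes a bZIP partner protein related to Atf3, was lower (-0.96, adjusted p = 0.0446), a call lost without wild-type replicates 1 and 2 and without knockout replicates 1 and 2, each left out in turn (count of lower genes 0), and against wild-type replicate 1 alone. The call of Jdp2 was also lost with quantile normalization, no mean trend and edgeR, and in the authors' deposited table (count of lower genes 0 in each). Ddit4l and Sesn3 were not called.

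Genes of the lysosomal platform that recruits mTORC1, listed together with folliculin, its partners and Slc38a9, went both ways by limma. Of 13 genes for the Rag GTPases, Ragulator and folliculin, 8 fell and 2 rose (median log2 difference -0.47). Among the Rag and Ragulator (Lamtor) genes, Rragb, Rragc, Lamtor2 and Lamtor4 fell and Rragd and Lamtor3 rose. Rraga, Lamtor1 and Lamtor5 were not called. The other lower genes were Flcn, Fnip1, Fnip2 and Slc38a9. Calls were fewer in the authors' deposited table, with 4 lower and 1 higher, so most of the list was not called lower there. Flcn, which encodes the folliculin tumour suppressor that acts on Rag GTPases, fell from 1138 ± 127 to 443 ± 33 (SD, n = 3; log2 difference -1.36), and its partner Fnip1 fell by 0.78 on the log2 scale. Rragd, whose protein pairs with RagA or RagB, rose from 140, 284 and 239 to 1155, 1929 and 1229 (log2 difference 2.72 ± 0.28 SE; limma adjusted p = 3.54e-05). Rragb was lower at 22.7, 28.1 and 37.5 against 68.5, 559 and 218 in wild-type replicates 1, 2 and 3 (log2 difference -2.78), and lost its call against wild-type replicate 1 alone (-1.22, adjusted p = 0.0989) and in the authors' deposited table (-3.26, adjusted p = 0.178). The count of lower genes was 5 without knockout replicate 1 and against wild-type replicate 1 alone. That of higher genes was 1 in the second of these, without wild-type replicate 3 and without knockout replicates 1 and 3 in turn. Of 13 GATOR and KICSTOR genes, which carry the amino acid signal and on which sestrins act, 3 fell and none rose. Gatsl3, which encodes the arginine sensor CASTOR1, fell from 186 ± 28 to 70.4 ± 6.2. Wdr59, a GATOR2 subunit, was lower by less (log2 difference -0.57), and its call was lost without wild-type replicates 2 and 3 in turn (limma adjusted p = 0.105 and 0.0562) and without knockout replicates 1 and 3 in turn (0.134 and 0.0719). It was also lost with no mean trend (limma adjusted p = 0.0762), in the authors' deposited table (0.112) and against wild-type replicate 1 alone (log2 difference -0.34, 0.252). The list's count was 1 lower gene without wild-type replicates 2 and 3 and knockout replicate 1, each left out in turn, with 1 higher gene in the first pair of these. It was also 1 lower gene with no mean trend and in the authors' deposited table. The stricter filter of 50 and DESeq2 each gave 5 lower genes, upper quartile scaling gave 6, and edgeR gave 1 higher gene.

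Growth factor and energy inputs were split by isoform. Of 18 genes 6 fell and 4 rose (2 without knockout replicate 3 and 2 in the authors' deposited table). Prkaa2 and Prkab2, the alpha-2 and beta-2 subunits of the energy sensor AMPK, fell by 1.57 and 1.18 on the log2 scale, whereas Prkaa1 and Prkab1, their alpha-1 and beta-1 counterparts, were higher by 0.40 and 0.94. Akt2 fell from 3774 ± 489 to 1897 ± 263 (SD, n = 3) and Akt1 rose from 7710 ± 1441 to 12946 ± 1719. Pik3r1, the main regulatory subunit of PI3 kinase, fell by 1.30 on the log2 scale.

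Among 15 tested substrates and effectors of mTORC1, 6 fell and 5 rose. Eif4ebp1, which encodes a translation repressor that mTORC1 switches off, rose from 447 ± 176 to 1184 ± 302 (SD, n = 3) and its paralog Eif4ebp2 from 2787 ± 424 to 4596 ± 152. Larp1, Eif4e and Eif4g1 rose by 0.92, 0.80 and 0.66 on the log2 scale. The lower ones were Pdcd4, Ulk1, Atg13, Lpin1, Maf1 and Grb10. Pdcd4, an inhibitor of the translation factor eIF4A, fell from 8157 ± 1009 to 2390 ± 622 and Ulk1, the kinase that starts autophagy, from 2135 ± 289 to 839 ± 103. Eif4ebp3 lay below the filter.

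Lysosomal genes that carry CLEAR elements and the relatives of Tfeb fell or were not called, with 13 lower and none higher of 26 (median log2 difference -0.41). After quantile normalization 2 were higher. Mitf, a relative of Tfeb that binds the same element, fell from 1021, 706 and 786 to 75.6, 118 and 70.2 (log2 difference -3.26 ± 0.25 SE; limma adjusted p = 5.41e-06), the largest change of the list. Tfe3, the third widely expressed member, was not called (0.09). Wipi1, an autophagy gene, fell by 1.52, the cathepsin gene Ctsf by 1.24 and Hexa, a lysosomal hexosaminidase gene, by 0.89 on the log2 scale. Sqstm1, the autophagy receptor p62, was not called, with wild-type values of 5047, 6147 and 4497 and knockout values of 4067, 3562 and 6090. Parietal and chief cell markers fell in the same libraries (7 of 7 and 5 of 5), and their part in the fall of lysosomal genes was not tested.

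Of 6 other measured genes tied to stages of paligenosis, 4 rose, 1 fell and 1, the lysosomal trafficking gene Rab7, was not called (log2 difference -0.03), and Rab7b was not matched. Slc7a11, a cystine transporter gene, went from 67.3, 87.7 and 117 in wild-type libraries to 2384, 1644 and 4373 in knockout libraries (log2 difference 4.85 ± 0.33 SE). Cd44, a metaplasia surface marker, rose by 2.66 and Trp53, which acts as a brake on re-entry into the cell cycle, by 1.41 on the log2 scale. Sox9 was lower (2046, 2409 and 2239 against 4282, 10257 and 4739), and lost its call in the authors' deposited table (adjusted p = 0.135).

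Genes of 5 further lists share stress inputs with the 10. Atf3, Ddit4 and Sesn2 are known targets of ATF4. A list of 16 genes held Atf4 itself and other targets: 8 rose, 4 fell and 4 were not called. The count of higher genes was 5 without wild-type replicate 3 and 5 in the authors' deposited table. Atf4 was among those not called (log2 difference 0.34, limma adjusted p = 0.186). Psat1 and Phgdh, which encode enzymes of serine synthesis, rose from 398 and 154 normalized counts to 3205 and 961 in the mean, while Ddit3, which encodes the stress factor CHOP, fell by 0.83 on the log2 scale and Vldlr fell by 2.02. Of 14 p53 targets 5 rose and 1 fell. The count of lower genes was 2 without knockout replicate 2. It was also 2 with the stricter filter of 50, upper quartile scaling, quantile normalization, array weights and DESeq2. Bax rose by 0.96 and Phlda3 by 1.77, and Trp53inp1 fell by 1.30 on the log2 scale, beside -1.27 for Sesn1.

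Immediate early genes, induced together with Atf3 in many tissues, rose in 7 of 11 cases. Fosl1 rose from 54.4 ± 10.2 to 719 ± 268 (SD, n = 3) and Ier2 by 1.34 on the log2 scale. Egr1 was at 335, 1540 and 1135 in wild-type replicates 1, 2 and 3 and 2340 to 2838 in the knockout, with a log2 difference of 1.67 that was 1.01 without wild-type replicate 1 and 2.98 against it alone. With no mean trend Egr1 lost its call (limma adjusted p = 0.0619). Fosb was the 1 lower gene, with 39.2, 412 and 137 in wild-type; the count was 0 without wild-type replicates 2 and 3 and knockout replicates 2 and 3, each left out in turn, 0 against wild-type replicate 1 alone, and 2 without wild-type replicate 1.

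Ddit4 is also a classic target of glucocorticoids and of hypoxia. Glucocorticoid response genes fell in 6 of 7 cases, with a median log2 difference of -2.26. Zbtb16 fell from 961 ± 289 to 36.4 ± 13.2 (SD, n = 3) and Fkbp5, a cochaperone of the glucocorticoid receptor, from 4119 ± 379 to 672 ± 118, while Ddit4 was at 1143 ± 216 and 1034 ± 372. Tsc22d3 and Sgk1 had log2 differences of -2.42 and -2.26. Hypoxia response genes split into 4 lower and 3 higher of 12 (1 higher without wild-type replicate 3 and without knockout replicate 3, in turn). The count of higher genes was also 1 with no mean trend and in the authors' deposited table. Bnip3, whose protein also restrains mTORC1 by binding Rheb, fell from 719 ± 81 to 57.7 ± 9.5, and Ldha rose by 0.89 on the log2 scale. Whether the change of Ddit4 differs from that of these lists was not tested.

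**Figure D5:**
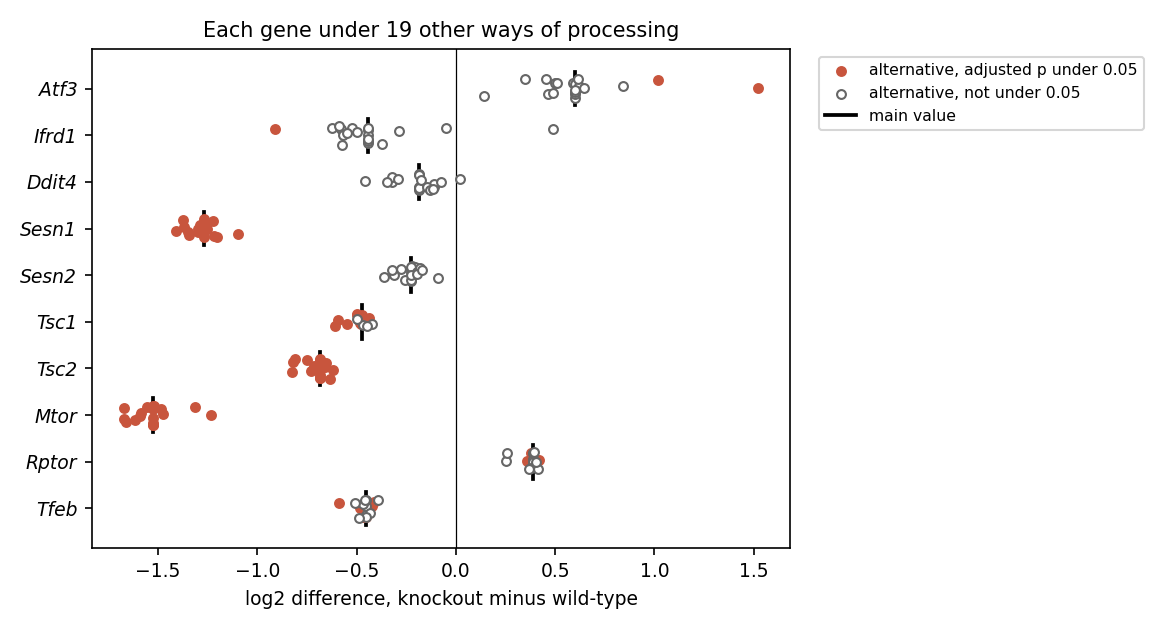
Log2 difference, knockout minus wild-type, of each of the 10 genes under 19 other ways of processing (points, filled where the adjusted p was under 0.05) beside the main value (black bar). Mtor, Sesn1 and Tsc2 are filled throughout, and the points of Atf3 spread from 0.14 to 1.52.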

How the data were processed

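Laser-captured neck regions of the stomach corpus gave 3 libraries of each genotype, grouped by the labels. STAR, featureCounts, DESeq and the build mm10 are named per the submitters' processing notes, with roles, versions, annotation and strandedness not given in the sources used here. The authors deposited normalized counts, a non-negative signal. All values (100%) were whole multiples of 1 number per library within 0.05 reads, and reads were recovered from them. The authors also deposited a comparison table that holds p-values and a ratio of means (fold change), used only as an alternative.

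The test was limma 3.58.1 in R 4.3.3 (lmFit and eBayes with a mean trend, two-sided) on log2(normalized count + 1), which understates the change of low genes. Benjamini-Hochberg adjustment ran over the 17432 genes that reached 10 normalized counts in 3 or more of 6 libraries, and the call was adjusted p under 0.05. The script was checked on simulated data. Alternatives covered the pseudocount (0.5 and 5), filter, scaling, trend, array weights, a replicate block, edgeR 4.0.16, DESeq2 1.42.0, the authors' table and left-out libraries. Leaving out wild-type replicates 2 and 3 together was added after seeing the data.

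The genes and lists were chosen with earlier results of these data known. Named genes were the 10, Cldn18, up to 4 called genes per list with the largest differences (groups apart, higher group's mean 100 or more) and the 3 profiles nearest to Mtor and Sesn1; some were left out for readability, and results for some list genes are not reported here. Other list genes named, such as Prkaa1, Prkab1, Akt1, Larp1, Eif4g1, Eif4ebp2, Rab7, Atg13, Maf1, Grb10, Jdp2, Mapkap1, Tfe3, Sqstm1, Ddit3, Fosb and Ldha, were chosen after their values were seen. Positions and exonic lengths are from GENCODE vM21 and sequences from RefSeq (GRCm38.p6).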

Additional observations from a re-analysis of the deposited data

How the results depend on the processing

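Sesn1, Tsc2 and Mtor kept their call in all 19 alternatives, and Sesn2 was called in 0. Rptor lost its call with no filter on low values (0.39, adjusted p = 0.0685), upper quartile scaling (0.25, 0.125), quantile normalization (0.26, 0.113), no mean trend (0.39, 0.0583), the authors' deposited table (0.39, 0.298) and against wild-type replicate 1 alone (0.41, 0.0642); leaving out single libraries gave 0.37 to 0.42. Tsc1 lost its call in the authors' deposited table (-0.47) and against wild-type replicate 1 alone (-0.50, adjusted p = 0.0535), with -0.55 to -0.42 over left-out libraries. Tfeb lost its call with no filter (-0.45, adjusted p = 0.0762), in the authors' deposited table (-0.45) and against wild-type replicate 1 alone (-0.49, 0.104), with -0.51 to -0.39 over left-out libraries. Over left-out libraries Atf3 ran from 0.14 to 1.02, Ifrd1 from -0.91 to -0.0482 and Ddit4 from -0.46 to 0.0193; against wild-type replicate 1 alone Atf3 was called at 1.52 and Ifrd1 turned to 0.49. The number of the 10 genes called higher was 0 with no filter, upper quartile scaling, quantile normalization, no mean trend, the replicate block and the authors' deposited table, and 0 to 2 over left-out libraries; the number called lower was 3 in the authors' table and against wild-type replicate 1 alone, and 3 to 5 over left-out libraries. The authors' table called 2024 genes lower, against 3743. Upper quartile scaling moved the median of all genes from -0.02 to -0.15, and quantile normalization to 0.10. Replicate numbers did not pair the libraries: deviations of same-numbered libraries correlated at -0.00366, 0.0214 and -0.173. Under the replicate block limma called 3726 genes higher and 3626 lower, and Rptor (0.39, adjusted p = 0.0823) and Tfeb (-0.45, 0.0916) were not called. The cause of these changes was not tested.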

Other observations

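Markers of other cell types gave further values. Of 6 enteroendocrine markers 4 rose and 1 fell (limma, adjusted p under 0.05), with sums of 22300 to 35400 normalized counts in wild-type and 35900 to 44300 in the knockout, and Gast was at 0 in some libraries. Of 6 fibroblast markers 3 rose and 0 fell (22000 to 36800 against 26400 to 47600). Smooth muscle markers fell in 2 of 5 cases and enteric neuron and glia markers in 3 of 5, and 3 of 5 surface and pit cell markers fell (882000 to 1500000 against 332000 to 578000). The 5 T cell markers summed to 44.7 to 68.5 in wild-type and 97.5 to 161 in the knockout, with Cd3e, Cd3g, Cd3d and Cd8a at 0 in some libraries. Cd3e, Cd3d and Cd8a lay below the filter. The 2 tested, Cd3g and Cd4, were not called (limma adjusted p = 0.0868 and 0.0649).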
